A study of Mus musculus with 3 samples.

Results

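The genes described here are 10 hallmark genes of mature, migratory dendritic cells (DCs): Fscn1, Marcks, Marcksl1, Cd83, Cd200, Tmem123, Mreg, Tbc1d4, Slco5a1 and Nudt17. They were taken as every probe set that the array's annotation table assigns to exactly 1 of these genes, which gave 25 probe sets of 38533 and 10 genes of 17886. All 10 genes had at least 1 such probe set, and 4 of them (Cd83, Cd200, Mreg and Nudt17) had only 1.

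The cells were wild-type mouse bone marrow cells grown over 5 days with GM-CSF, the granulocyte-macrophage colony-stimulating factor, a treatment that all groups share, and then sorted on surface PDL2, a ligand of the inhibitory receptor PD-1. The 3 groups were PDL2-positive untreated cells, PDL2-negative cells stimulated with lipopolysaccharide (LPS, a bacterial cell wall component) at 100 ng/ml, and PDL2-negative untreated cells. Mouse strain, age, sex, the number of mice and the length of the LPS treatment are not given in the sources used here. Each group had 1 Affymetrix array, so no difference has a replicate check, no p-value is given, and a difference is described by its size alone. GM-CSF cultures are known to hold macrophage-like cells beside DCs, and no movement of cells was measured.

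A DC that matures stops taking up antigen, displays what it has taken up, and travels through lymphatic vessels to the T cell areas of lymph nodes. The change in shape needs actin bundles and membrane-bound actin regulators, the travel needs the chemokine receptor CCR7, and the meeting with T cells is tuned by surface proteins of the immunoglobulin family. Mature DCs found in tissues and tumours share a transcript signature in which the genes described here recur beside Ccr7, Ccl22 and Relb.

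Signals are log2 values after quantile normalization, and the floor, below which a signal was not read, was the median of all values at 5.58. The brightest probe set by mean signal stands for a gene. A difference of 2-fold or more, which is 1 on the log2 scale, counts as higher or lower. Where one of the arrays lay below the floor, the fold is a lower bound. The gene encoding PDL2, Pdcd1lg2, was at 11.73 in PDL2-positive cells, 9.44 after LPS and 8.40 in PDL2-negative untreated cells. It was thus highest in the cells sorted as PDL2-positive. The other groups share the PDL2-negative label, and between them the LPS array was higher by 1.04 on the log2 scale. All 7 DC markers examined, among them Itgax, Flt3 and Zbtb46, were above the floor on all 3 arrays. In the PDL2 comparison, PDL2-positive against PDL2-negative untreated cells, 3 of them were higher by at least 2-fold and Itgax was lower, at -1.67. The higher ones were Zbtb46 at 2.37, Dpp4 at 2.25 and Flt3 at 1.89 on the log2 scale. Of all genes measured there, 10.1% were higher and 13% lower. The part of these markers in the results was not tested. Of 9 macrophage markers 8 were measured, and their median signal was 7.25 in PDL2-positive cells, 11.76 after LPS and 12.26 in PDL2-negative untreated cells.

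All 10 genes were higher by at least 2-fold in PDL2-positive cells than in untreated PDL2-negative cells, with a median log2 difference of 3.89. Over all 10926 genes measured in that comparison 10.1% were higher and 13% were lower by that rule, and the median difference was 0.01. The 10 genes were chosen with earlier results of these data known, so their count beside this share is a description and not an independent test. The differences ran from 1.47 for Marcks to 5.19 for Fscn1. At the level of single probe sets, 24 of 25 were higher by at least 2-fold and all 25 differed upwards. These sets include 7 of Marcks, 4 of Fscn1 and 4 of Marcksl1, so they are repeated readings of the same genes. The share over all probe sets was not computed. The 8 macrophage markers measured were all lower by at least 2-fold in the same comparison, by log2 differences of -5.74 to -3.36, and Mrc1 lay below the floor in PDL2-positive cells. The log2 of the summed signal of these markers was 11.53 in PDL2-positive cells, against 15.69 in PDL2-negative untreated cells, and the part of this difference in the results was not tested. In sorted cells read in bulk, a smaller share of cells of one type and less RNA per cell cannot be told apart.

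**Figure D1:**
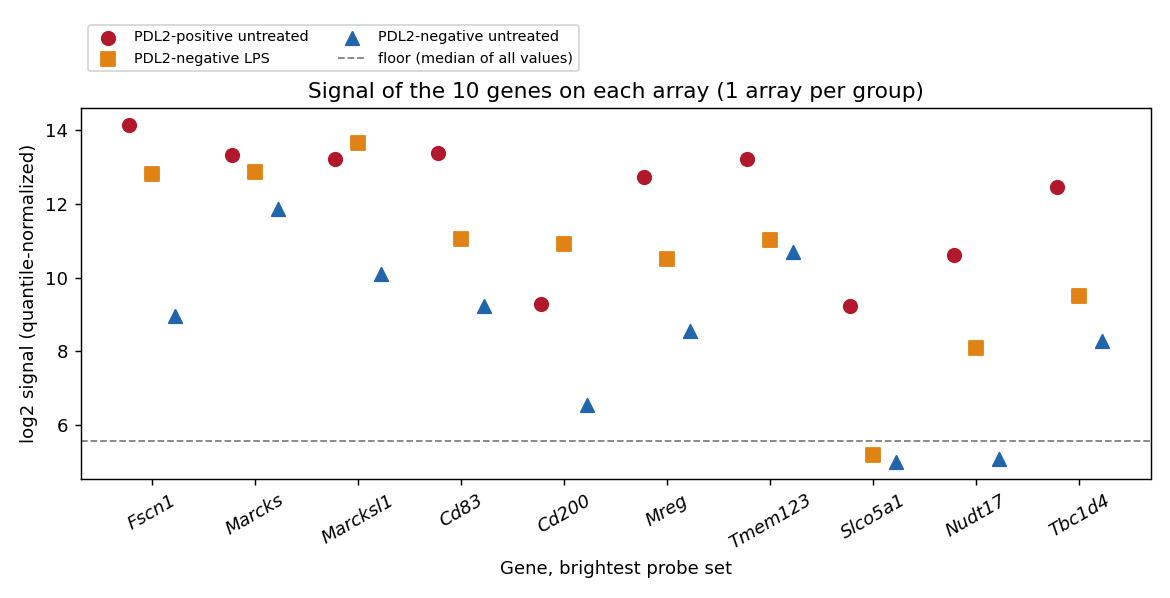
Log2 signal of the brightest probe set of each of the 10 genes (vertical axis) on the PDL2-positive untreated, PDL2-negative LPS and PDL2-negative untreated array, 1 point per array, with no error bars because each group had 1 array. The PDL2-positive array is highest for 8 genes, while Marcksl1 and Cd200 are highest on the LPS array, and the dashed line marks the floor of 5.58.

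Fscn1 encodes fascin, which packs actin filaments into the tight bundles that fill the dendrites of mature DCs. Its brightest probe set read 14.14 in PDL2-positive cells, 12.81 in LPS-treated cells and 8.96 in PDL2-negative untreated cells. The 3 arrays were thus well separated, with the PDL2-positive array on top. The signal was 36.4-fold higher in PDL2-positive cells than in PDL2-negative untreated cells, and this difference ranked 25 from the top among the genes measured. The other 3 probe sets of Fscn1 gave log2 differences of 4.46, 5.26 and 5.84. The brightest set lay near the top of the scale, which ended at 14.75, and signals there can be compressed.

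Marcks and Marcksl1 encode related proteins that are held at the inner face of the plasma membrane, bind actin and calmodulin, and leave the membrane when protein kinase C phosphorylates them. Marcks read 13.34 in PDL2-positive cells, 12.86 after LPS and 11.87 in PDL2-negative untreated cells, so it was bright on all 3 arrays and had the smallest difference of the 10 genes. It was 2.77-fold higher in PDL2-positive cells than in untreated PDL2-negative cells. Of its 7 probe sets 6 were higher by at least 2-fold, and the exception was the dimmest set, at 0.48. Marcksl1 read 13.22 in PDL2-positive cells, 13.66 after LPS and 10.12 in PDL2-negative untreated cells, and was 8.58-fold higher in PDL2-positive cells than in untreated PDL2-negative cells. Its 4 probe sets gave differences of 2.16 to 3.45. All 4 are of the kinds marked _x_at or _s_at, whose probes can also bind related transcripts, and 3 of the 7 Marcks sets are of the _x_at kind.

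Cd83 encodes an immunoglobulin-family glycoprotein used as the surface marker of mature DCs, and its transmembrane part keeps MHC class II and CD86 at the surface by opposing the ubiquitin ligase MARCH1. It read 13.38 in PDL2-positive cells, 11.06 after LPS and 9.24 in PDL2-negative untreated cells. The arrays stood in steps of similar size, and the PDL2-positive signal was 17.5-fold above the PDL2-negative untreated one. Cd200 encodes a ligand that restrains myeloid cells through the receptor CD200R. Its signal was 9.29 in PDL2-positive cells, 10.92 after LPS and 6.55 in PDL2-negative untreated cells. It was 6.67-fold higher in PDL2-positive cells than in untreated PDL2-negative cells, and its highest signal was that of the LPS array. Tmem123 encodes porimin, a mucin-like membrane protein that in human cells has been linked to a form of cell death with swelling. Its brighter set read 13.23 in PDL2-positive cells, 11.02 after LPS and 10.71 in PDL2-negative untreated cells, so the LPS and untreated arrays lay close together. The PDL2 differences of its sets were 2.52 and 3.01, a 5.74-fold and an 8.05-fold higher signal.

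Mreg encodes melanoregulin, found as the suppressor of the dilute coat colour mutation in mice and involved in the transport of melanosomes and lysosome-related organelles. It read 12.75 in PDL2-positive cells, 10.50 after LPS and 8.56 in PDL2-negative untreated cells, again in steps of similar size. It was 18.2-fold higher in PDL2-positive cells than in untreated PDL2-negative cells. Tbc1d4 encodes AS160, a Rab GTPase-activating protein that holds back glucose transporter vesicles in muscle and fat until AKT phosphorylates it. Its brighter set read 12.47 in PDL2-positive cells, 9.52 after LPS and 8.30 in PDL2-negative untreated cells, an 18.1-fold higher signal in PDL2-positive cells than in untreated PDL2-negative cells. The dimmer Tbc1d4 set gave a log2 difference of 1.70, so the sets agreed on direction and not on size.

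Slco5a1 belongs by sequence to the organic anion transporter family, and its substrates are poorly known. Its brighter set read 9.23 in PDL2-positive cells and lay below the floor on the other arrays, at 5.20 after LPS and 5.00 in PDL2-negative untreated cells. It was at least 12.6-fold higher in PDL2-positive cells than in untreated PDL2-negative cells. The dimmer set, at 7.01, 4.83 and 4.75 on the PDL2-positive, LPS and PDL2-negative untreated arrays, was at least 2.69-fold higher. Slco5a1 was the only 1 of the 10 genes read above the floor on no PDL2-negative array. Nudt17 encodes a protein of the Nudix hydrolase family, enzymes that cleave nucleoside diphosphates linked to other groups. It read 10.61 in PDL2-positive cells, 8.08 after LPS and 5.07, below the floor, in PDL2-negative untreated cells. It was at least 32.8-fold higher in PDL2-positive cells than in untreated PDL2-negative cells, and its difference ranked 32 from the top.

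**Figure D2:**
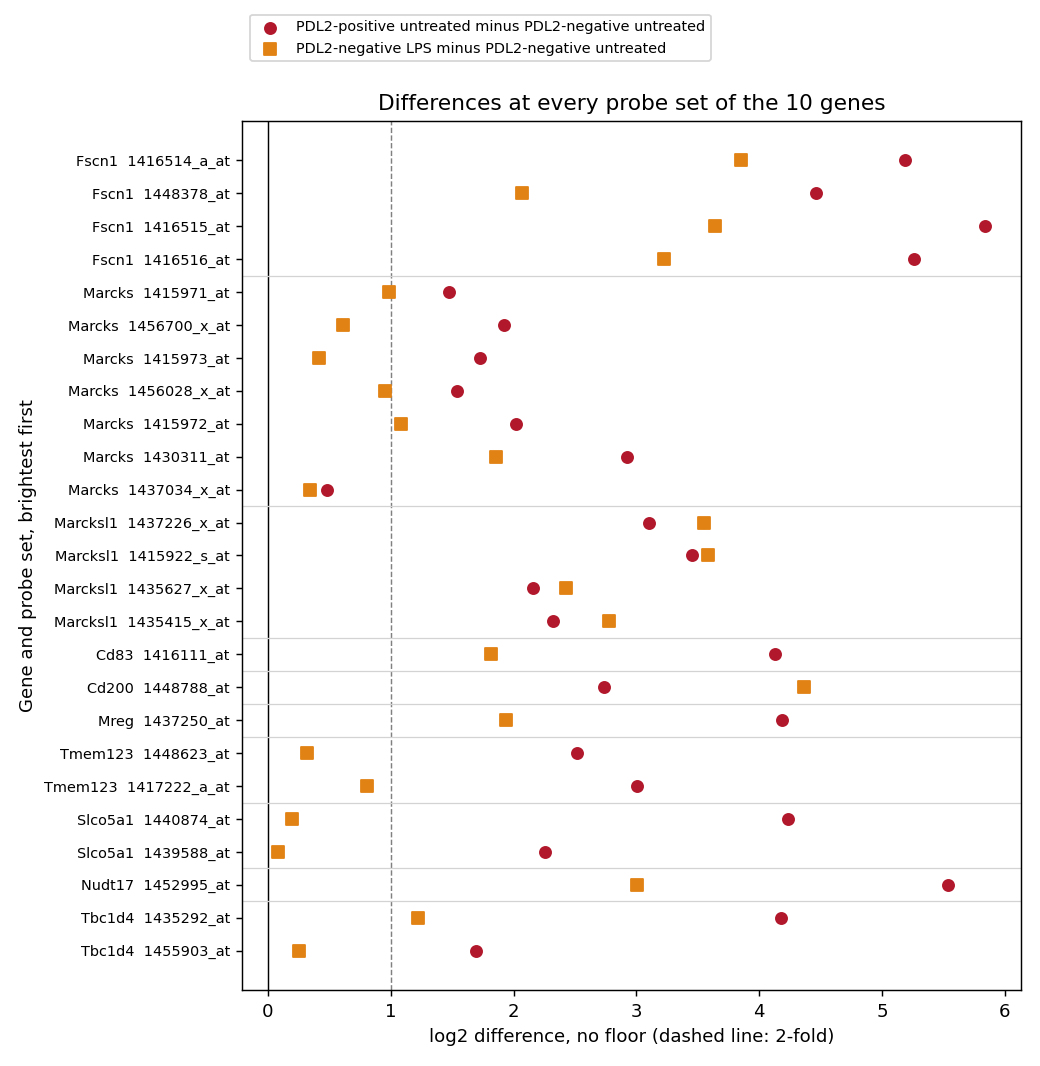
Log2 difference at each of the 25 probe sets (rows, brightest first within a gene) for PDL2-positive untreated minus PDL2-negative untreated cells (circles) and PDL2-negative LPS minus PDL2-negative untreated cells (squares), with no floor applied. The circles lie right of the squares for every gene but Marcksl1 and Cd200, and the dashed line marks 2-fold.

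The stretches around the start sites of 3 genes are printed because they mark the extremes of the set: Fscn1 and Nudt17 had the largest PDL2 differences, and Cd200 was higher after LPS than in PDL2-positive cells. Each is the RefSeq window from 250 bases before to 50 after the start site on build GRCm38.p6, 5′ to 3′ on the gene's strand. Capitals in Fscn1 mark the cyclic AMP response element TGACGTCA and the sequence TATAAA, and capitals in Cd200 mark a half-site of that element, TGACG read on the opposite strand. Nudt17 holds none of the motifs searched.
Fscn1, chr5:142960105-142960404, plus strand: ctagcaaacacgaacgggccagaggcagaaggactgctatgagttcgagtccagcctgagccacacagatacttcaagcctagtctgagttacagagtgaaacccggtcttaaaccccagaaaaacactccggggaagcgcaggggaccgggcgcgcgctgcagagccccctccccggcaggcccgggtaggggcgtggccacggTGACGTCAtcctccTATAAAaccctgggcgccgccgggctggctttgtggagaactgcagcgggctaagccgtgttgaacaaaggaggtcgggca
Nudt17, chr3:96708511-96708810, minus strand: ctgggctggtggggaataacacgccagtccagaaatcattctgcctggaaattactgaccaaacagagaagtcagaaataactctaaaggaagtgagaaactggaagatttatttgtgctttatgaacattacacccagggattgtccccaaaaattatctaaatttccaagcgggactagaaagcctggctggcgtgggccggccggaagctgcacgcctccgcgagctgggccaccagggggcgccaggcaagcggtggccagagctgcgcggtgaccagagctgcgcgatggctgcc
Cd200, chr16:45409004-45409303, minus strand: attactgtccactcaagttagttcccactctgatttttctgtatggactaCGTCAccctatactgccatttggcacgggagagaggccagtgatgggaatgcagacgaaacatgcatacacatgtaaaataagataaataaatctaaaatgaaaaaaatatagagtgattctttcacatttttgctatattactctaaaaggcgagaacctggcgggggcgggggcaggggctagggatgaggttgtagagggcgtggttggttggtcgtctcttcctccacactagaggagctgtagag

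RefSeq windows were found for 7 of the 10 genes, as 9 windows. On either strand, 0 of the 9 held the NF-kB consensus, 0 held the AP-1 form TGANTCA and 0 held the interferon-type repeat, a pair of GAAA with any 2 bases between them, against 4.51%, 7.81% and 3.44% of all 32851 windows. TGACGTCA was found in Fscn1 alone, at bases 45 to 38 before its start site, against 1.79% of all windows, and TATAAA in Fscn1 alone at bases 31 to 26, against 13.6%. TGACG, which also lies within TGACGTCA, was found in Fscn1 and in Cd200, against 20.8%. The Fscn1 window had 21 CpG dinucleotides, the Nudt17 window 14 and the Cd200 window 8, against a median of 7 over all windows. A match describes letters in a window and shows no binding.

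After LPS, 7 of the 9 genes that could be compared were higher by at least 2-fold in PDL2-negative cells and 0 were lower, with a median log2 difference of 1.94. Over all 11000 genes measured, 9.17% were higher and 13.8% lower, and the median was 0.02. The differences ran from 0.32 for Tmem123 to 4.37 for Cd200. Slco5a1 was below the floor on both arrays and has no fold. All 23 probe sets that could be compared differed upwards, and 15 of them by at least 2-fold. They too hold repeated readings of the same genes, and the share over all probe sets was not computed. The macrophage markers had a median difference of -0.47 in this comparison, with 1 of 8 higher and 3 lower.

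Cd200 had the largest difference after LPS, 20.6-fold, and ranked 75 from the top. Fscn1 was 14.4-fold higher, with 4 probe sets from 2.07 to 3.85 on the log2 scale, and Marcksl1 was 11.7-fold higher, with 4 sets from 2.43 to 3.58. Nudt17 was at least 5.67-fold higher after LPS, Mreg 3.84-fold and Cd83 3.53-fold. The signals of these 6 genes were therefore higher on the LPS array than on the untreated one by more than the 2-fold rule asks. With the floor raised to the 75th percentile, at 7.80, the LPS signal of Nudt17 stood just above it and the untreated signal was below it, which left a lower bound of 0.28 on the log2 scale.

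Tbc1d4, Marcks and Tmem123 had the smallest differences after LPS. Tbc1d4 was 2.33-fold higher by its brighter set but differed by only 0.26 on the log2 scale at the dimmer one, and by 0.74 with the sets averaged. Marcks was 1.99-fold higher, just under the rule, and 2 of its 7 sets passed it. With the deposited values its difference was 1.04 and with median centring 1.07, both past 2-fold. Tmem123 differed by 0.32 and 0.81 at its sets, under 2-fold at both.

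**Figure D3:**
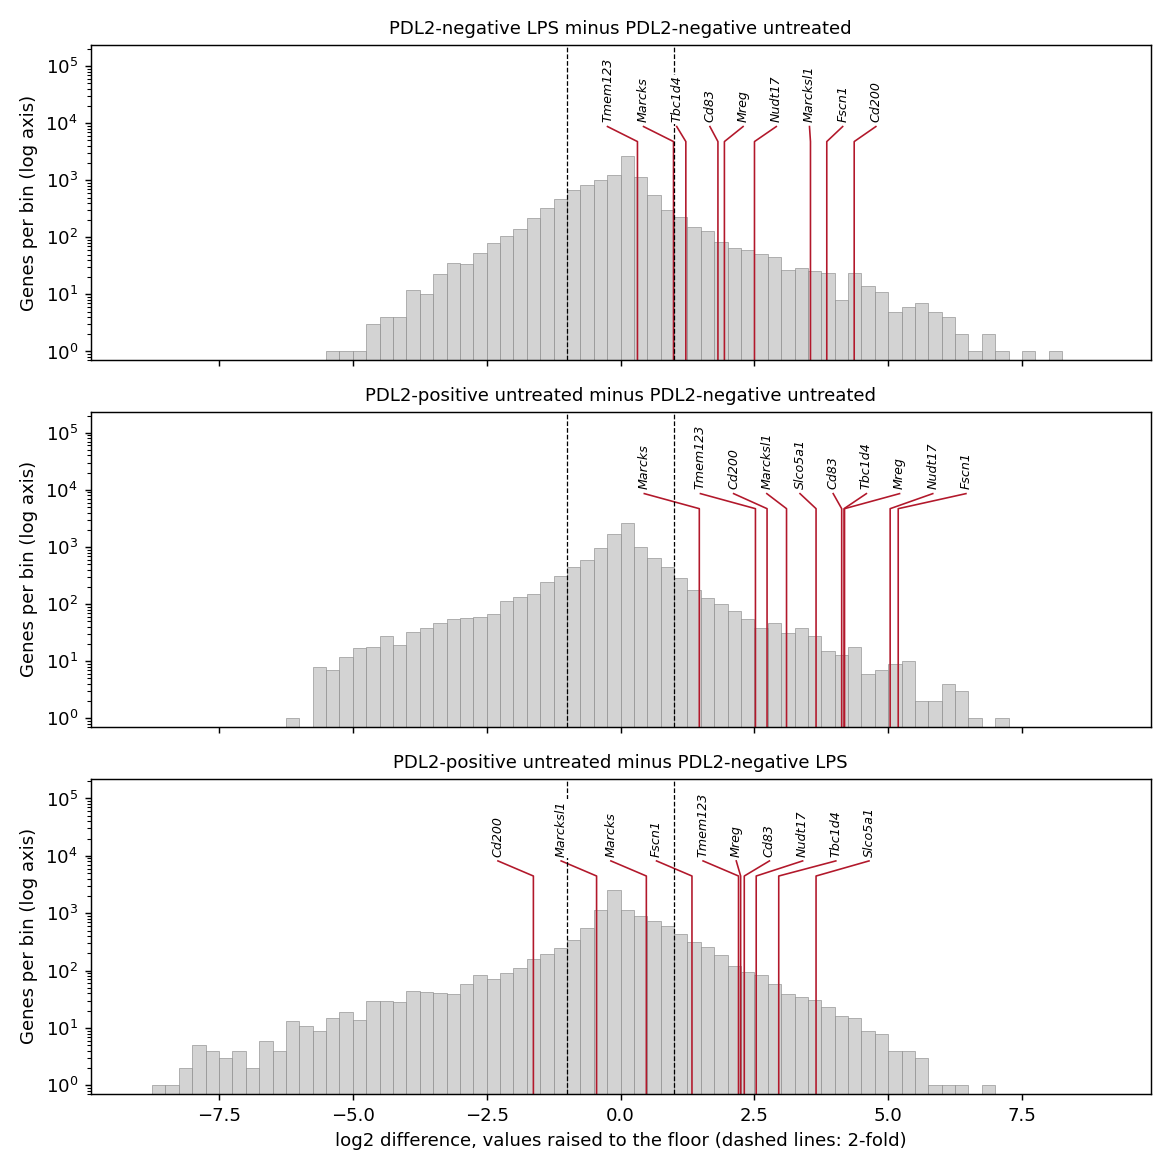
Histograms of the log2 difference of all genes measured in each of the 3 comparisons (horizontal axis; genes per bin of 0.25 on a log axis), with red lines at the 10 genes and dashed lines at 2-fold. The 10 genes all lie right of the 2-fold line in the PDL2 comparison, spread from 0.32 to 4.37 after LPS, where Slco5a1 is not shown, and from -1.63 to 3.65 between PDL2-positive and LPS-treated cells.

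Set directly against LPS-treated PDL2-negative cells, untreated PDL2-positive cells had higher signals by at least 2-fold for 7 of the 10 genes and a lower signal for 1, with a median log2 difference of 2.22. Over all 11042 genes measured, 15.6% were higher and 12.6% lower, and the median was -0.05. Slco5a1 was at least 12.6-fold higher, Tbc1d4 7.76-fold, Nudt17 5.79-fold, Cd83 4.96-fold, Mreg 4.74-fold, Tmem123 4.61-fold and Fscn1 2.52-fold higher. The sizes depended on the probe set: the dimmer Slco5a1 set was at least 2.69-fold and the dimmer Tbc1d4 set 2.71-fold higher. For Fscn1 the 3 dimmer probe sets gave larger differences, 2.04 to 2.40, than the brightest, at 1.33. The macrophage markers were lower by at least 2-fold for 8 of 8 in this comparison too.

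Cd200 was the gene with the lower signal, 3.09-fold lower in PDL2-positive than in LPS-treated cells. Marcksl1 differed by -0.45 and Marcks by 0.48, under 2-fold. All 4 Marcksl1 sets were lower in PDL2-positive cells, by -0.46 to -0.13, gaps of the size that separates probe sets of the same gene. The robust SD of such a difference, estimated from the 2 brightest sets of 4121 genes, was 0.31 on the log2 scale. For Marcks 3 of 7 sets were past 2-fold, up to 1.31, so the order of the PDL2-positive and LPS arrays was the same at every set and its size was not. The 3 comparisons share arrays and are not independent of each other.

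The order of the groups was PDL2-positive, LPS, PDL2-negative untreated for Fscn1, Marcks, Cd83, Mreg, Tmem123, Nudt17 and Tbc1d4, and LPS, PDL2-positive, PDL2-negative untreated for Marcksl1 and Cd200. For Slco5a1 the PDL2-positive array was highest and the others were not ranked. Neighbouring groups that differed by under 2-fold were PDL2-positive and LPS for Marcks and Marcksl1, and LPS and PDL2-negative untreated for Marcks and Tmem123.

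Among 9842 other genes above the floor on all 3 arrays, the 6 whose pair of differences (LPS and PDL2) lay closest to the median pair of the 10 genes were Birc2, Sinhcaf, Ktn1, Rras2, Ttc39c and Socs2. The distances, over 3 arrays, ran from 0.04 for Birc2 to 0.46 for Socs2. Of the 10 genes themselves, Cd83 (0.27) and Mreg (0.29) lay that close, while Cd200 lay furthest away (2.69). Slco5a1 has no LPS difference and so no distance. The median pair comes from the 10 genes, and its LPS value of 1.94 is that of Mreg, so the closeness of Mreg is partly set by construction. Birc2, an inhibitor of apoptosis protein that also controls NF-kB signalling, read 12.05 in PDL2-positive cells, 10.08 after LPS and 8.18 in PDL2-negative untreated cells. Socs2, a feedback inhibitor of cytokine signalling, read 12.02, 10.07 and 7.81 on the same arrays. These distances use the brightest set of each gene. The 5 probe sets of Socs2 ran from 0.85 to 2.27 after LPS and from 2.40 to 4.21 in the PDL2 comparison. Birc2 and Socs2 are also in the list of 30 genes described next. The likeness rests on 3 arrays.

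Another 30 genes of the migratory mature DC state, many of them known from earlier results of these data, were taken as a list. Of 27 measured, 26 were higher by at least 2-fold in PDL2-positive cells than in untreated PDL2-negative cells and 0 were lower, with a median log2 difference of 4.34. Of all genes 10.1% were higher and 13% lower. After LPS 20 of 26 were higher and 0 lower, with a median of 2.26, beside 9.17% and 13.8% of all genes. Between PDL2-positive and LPS-treated cells 15 of 28 were higher and 1 was lower, Cd40 at -3.64, with a median of 1.58. There 15.6% of all genes were higher and 12.6% lower. Ccr7 itself read 14.01 in PDL2-positive cells, 12.37 after LPS and 7.74 in PDL2-negative untreated cells. Fabp5, a fatty acid binding protein gene, was the measured gene of this list under 2-fold in the PDL2 comparison, at -0.20.

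Of 21 actin bundling and filament regulators, 3 were higher and 1 was lower by at least 2-fold in PDL2-positive cells than in untreated PDL2-negative cells, with a median of -0.02, beside the 10.1% higher and 13% lower of all genes. The higher ones were Rdx, which ties actin to the membrane, at 1.53, the alpha-actinin gene Actn1 at 1.13 and the plastin gene Pls3 at 1.00, and the lower one was Capg, a filament capping protein gene, at -2.50. After LPS 2 were higher and 3 lower, with a median of -0.11, beside 9.17% higher and 13.8% lower of all genes. Fascin is known to help mature DCs take down podosomes, the adhesive actin structures of immature DCs. Of 16 podosome and actin adhesion genes, 4 were higher and 5 lower in the PDL2 comparison (median -0.37), and 4 were higher and 3 lower after LPS (median -0.15). The shares of all genes are those just given for the actin regulators. In the PDL2 comparison leupaxin (Lpxn) was at -4.03 and the integrin chain Itgb2 at -3.11. The other lower genes were Gsn at -1.88 and, named after their values were seen, Mmp14 at -1.65 and Was at -1.22. The 4 higher genes were the metalloprotease gene Adam8 at 1.87 and 3 others, also named after their values were seen. Those were the podosome scaffold gene Sh3pxd2a at 1.44, the kinase gene Src at 1.31 and the cortactin gene Cttn at 1.05. The last 3 had another probe set under 2-fold, at 0.16, 0.57 and 0.38.

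**Figure D4:**
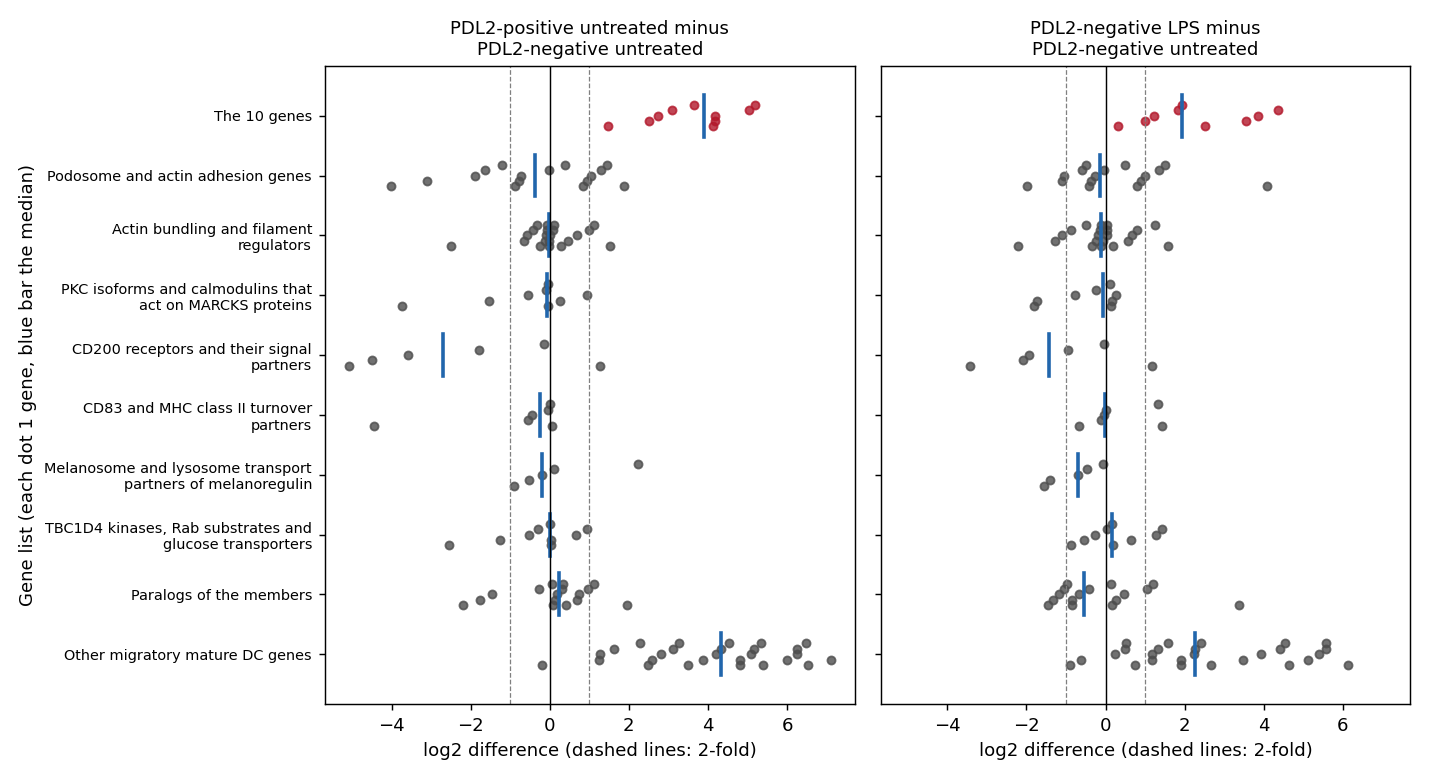
Log2 difference of each measured gene in the lists linked to the 10 genes (rows), for PDL2-positive untreated minus PDL2-negative untreated cells (left) and PDL2-negative LPS minus PDL2-negative untreated cells (right). Each dot is 1 gene, the blue bar is the median of the list and the dashed lines mark 2-fold; the medians of the 10 genes, 3.89 and 1.94, and of the other migratory mature DC genes, 4.34 and 2.26, lie right of the 2-fold line.

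Of 8 protein kinase C isoforms measured, the family that acts on the MARCKS proteins, 0 were higher and 2 lower in the PDL2 comparison (median -0.07), namely Prkcb at -3.74 and Prkch at -1.53. Those 2 were also lower after LPS, by -1.73 and -1.81, with 0 higher (median -0.06). For this list and those that follow, the shares of all genes were 10.1% higher and 13% lower in the PDL2 comparison. After LPS they were 9.17% higher and 13.8% lower. Of 6 genes measured for CD200 receptors and their signalling, 1 was higher and 4 were lower in the PDL2 comparison (median -2.69), and 1 was higher and 3 lower after LPS (median -1.44). Cd200r1, the inhibitory receptor for CD200, read 6.79 in PDL2-positive cells, 9.78 after LPS and 11.87 in PDL2-negative untreated cells. Its order of groups was thus not that of its ligand's gene, whose highest signal was on the LPS array. The log2 difference in the PDL2 comparison was -5.08, and at another Cd200r1 probe set, which lay below the floor in PDL2-positive cells, it was a bound of -1.47 or lower.

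Of 6 genes tied to CD83 through MHC class II turnover, 0 were higher and 1 was lower in the PDL2 comparison (median -0.25), and 2 were higher and 0 lower after LPS (median -0.01). The lower one was Marchf1, which encodes the ligase that CD83 opposes. It lay below the floor in PDL2-positive cells and was at least 21.8-fold lower there than in PDL2-negative untreated cells, while after LPS it was higher by 1.32 on the log2 scale, or 0.64 at another probe set. Cd83 was higher in both comparisons, and Marchf1 was lower in the first and higher in the second.

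Of 5 transport partners of melanoregulin measured, 1 was higher in the PDL2 comparison (median -0.20) and 2 were lower after LPS (median -0.68). The higher one was Rab27a, a GTPase of lysosome-related organelles, at 2.22 by its brightest set and at least 0.50 by another, which lay below the floor on both PDL2-negative arrays, and it was at least 2.92-fold lower after LPS. Of 9 genes around TBC1D4 measured, 0 were higher and 2 lower in the PDL2 comparison (median 0.00), and 2 were higher and 0 lower after LPS (median 0.17). In either comparison these were the glucose transporter genes Slc2a1 and Slc2a3. Slc2a1 read 8.08 in PDL2-positive cells, 11.91 after LPS and 10.63 in PDL2-negative untreated cells, and Slc2a3 read 7.17, 9.86 and 8.42 on the same arrays. Tbc1d4 and these transporter genes thus differed in opposite directions in the PDL2 comparison. Slc2a4, a further glucose transporter gene of the list, lay just above the floor on all arrays, at 5.74, 5.91 and 5.74 in the same order. Its difference in the PDL2 comparison was 0.00.

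Of 21 paralogs or other relatives of the 10 genes, 16 were measured in the PDL2 comparison, with 2 higher and 3 lower (median 0.25). Of all genes 10.1% were higher and 13% lower. After LPS 3 of the list were higher and 4 lower (median -0.54). The fascin paralogs Fscn2 and Fscn3 and the MARCKS-like membrane protein gene Gap43 were below the floor on all 3 arrays. Basp1, another MARCKS-like membrane protein gene, read 13.68 in PDL2-positive cells, 12.8 after LPS and 12.55 in PDL2-negative untreated cells. It differed by 1.13 in the PDL2 comparison and by 0.26 after LPS. Tbc1d1, the close relative of Tbc1d4, differed by 0.97 in the PDL2 comparison and by 1.21 after LPS. Slco3a1, of the same transporter family as Slco5a1, read 6.74 in PDL2-positive cells, 11.87 after LPS and 8.49 in PDL2-negative untreated cells, so its highest array was the LPS array. Nudt9, an ADP-ribose hydrolase gene of the Nudix family, differed by 1.96 in the PDL2 comparison and by 1.04 after LPS. Other Nudix genes went the other way. The 4 genes lower after LPS were Nudt1 at -1.46, Nudt4 at -1.32, Nudt2 at -1.18 and Nudt19 at -1.06. The 3 lower in the PDL2 comparison were Slco4a1 at -2.19, Slco3a1 at -1.75 and Nudt19 at -1.46. Another probe set was under 2-fold for Nudt4 after LPS, at -0.54, and for Slco4a1 in the PDL2 comparison, at -0.88.

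Other cell types that can express genes of the set were looked for by their markers. Of 6 B cell markers on the array 1 was above the floor in PDL2-positive cells, 3 after LPS and 2 in PDL2-negative untreated cells. The log2 of their summed signal was 8.59, 9.26 and 10.99 in the same order, with Ms4a1 and Cd79a below the floor on all 3 arrays. The brightest of them was the immunoglobulin heavy chain gene Ighm, at 7.63 in PDL2-positive cells, 8.68 after LPS and 10.84 in PDL2-negative untreated cells, while the next reached 5.94. Of 3 T and NK cell markers on the array 1 was above the floor on each array, with summed signals of 6.78, 6.88 and 6.81. Of 7 stromal and endothelial markers, 2 were above the floor in PDL2-positive cells, 4 after LPS and 3 in PDL2-negative untreated cells, with summed signals of 8.28, 10.55 and 8.73. The brightest after LPS was Kdr, at 10.19, against 7.11 in PDL2-negative untreated cells, while the next, Dcn, read 6.69 after LPS. Cdh5 read 5.59 after LPS, just above the floor of 5.58. Monocyte markers were lower in PDL2-positive cells than in untreated PDL2-negative cells for 4 of 4 measured (median -3.38), and 2 were lower after LPS (median -1.04). Neutrophil markers were lower for 1 of 7 (median -0.06) in the PDL2 comparison and for 4 of 7 after LPS (median -1.25). All 7 were above the floor on each array. The log2 of their summed signal was 13.95 in PDL2-positive cells, 13.04 after LPS and 14.05 in PDL2-negative untreated cells. Of 3 mast cell and basophil markers measured, 1 was higher in the PDL2 comparison and 0 after LPS (medians 0.30 and 0.22). Their part in the results was not tested.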

How the data were processed

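Total RNA of sorted cells was labelled with biotin and hybridized to 3 arrays, 1 per group, per the labels' protocols. The deposited values are log2 signals, 1 per probe set and array, as their range of 3.19 to 14.83 shows; how the authors corrected and summarised them is not given in the sources used. Because the 75th percentiles of the arrays differed by more than 0.1 (7.84, 7.68 and 7.90 for PDL2-positive, LPS and PDL2-negative untreated cells), the deposited values were quantile-normalized over 38533 probe sets, leaving out 13 control sets. This moved no signal of the 10 genes by more than 0.13. Of the probe sets, 33974 named 1 gene, 449 named several and were not used, and 4110 were unnamed. Symbols were updated through gene numbers to RefSeq. Values under the floor (the median of all values) were raised to it, and a gene was compared if above it on at least 1 of the arrays compared. The spread between cultures is unknown; the robust SD of a probe set's difference, from the 2 brightest sets of a gene, was 0.21 (PDL2), 0.29 (LPS) and 0.31 (PDL2-positive against LPS). Precision is limited by the number of arrays.

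The 10 genes, 9 linked gene lists, 8 marker lists and the rule for named genes were chosen with earlier results of these data known. All 10 genes are named, with up to 4 genes past 2-fold per list and comparison, paralogs, and the 6 nearest genes. Of the linked lists, genes on no probe set that names them alone were not analysed here. Results of 1 further list are not reported here. The size rule was tested on simulated data. Python 3.11.15, numpy 2.4.6, pandas 2.3.3 and matplotlib 3.10.9 were used.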

Additional observations from a re-analysis of the deposited data

How the results depend on the processing

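No difference of the 10 genes past 2-fold changed direction under any of the 7 alternatives run for it: deposited values, median centring, a floor at the 75th percentile, no floor, averaged probe sets, the second brightest probe set, and no _x_at sets (the last chosen after seeing the data). Of 191 such values 152 moved by less than the robust SD between probe sets and 39 by more. Many of the 152 could not move, so their count overstates how stable the values are. Dropping _x_at sets could change only Marcksl1, and averaging left genes with 1 probe set as they were. A changed floor left genes above it as they were. After LPS 3 calls were lost and 2 gained. Between PDL2-positive and LPS-treated cells 1 was gained, and none changed in the PDL2 comparison. With the second brightest set, which only 6 genes have, 6 were higher in the PDL2 comparison (median 2.46), 2 of 5 after LPS (median 0.81), and between PDL2-positive and LPS-treated cells 0 were lower (median 1.43); fewer genes were compared. With the floor at the 75th percentile the medians were 2.96 in the PDL2 comparison and 1.82 between PDL2-positive and LPS-treated cells, as the construction of a higher floor gives. The PDL2 median was 4.15 with no floor and 2.85 with averaged sets; the cause of the latter was not tested. Counts at 1.5-fold and 3-fold stayed within 1.5 times the counts at 2-fold. The LPS difference of the median gene, over genes read on both arrays, was -0.08 with the deposited values and 0.04 with quantile normalization. Signals near the floor, as for Slco5a1 and Nudt17, give lower bounds only. No paired analysis was possible because each group had 1 array.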

Other observations

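The kinase gene Src, of the podosome and actin adhesion list, read 7.47 in PDL2-positive cells, 10.23 after LPS and 6.16 in PDL2-negative untreated cells, with differences of 1.31 in the PDL2 comparison and 4.07 after LPS. Kdr, a vascular growth factor receptor gene of the endothelial marker list, was named after its values were seen: it read 5.42 in PDL2-positive cells, 10.19 after LPS and 7.11 in PDL2-negative untreated cells. Kit, a growth factor receptor gene of the mast cell list, was also chosen after its values were seen and read 9.78 in PDL2-positive cells, 6.97 after LPS and 6.26 in PDL2-negative untreated cells.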
